A study of Mus musculus with 6 samples.

Results

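The genes described here belong to families of enzymes that place and remove acetyl and methyl groups on histones and DNA. They were the 70 of 25124 listed genes whose symbols begin with Kdm, Kmt, Setd, Hdac, Kat, Sirt, Ezh, Tet or Dnmt followed by a digit, chosen by name and not by any measured value. Of the 70, 30 were sorted as writers, which are 8 lysine acetyltransferases, 18 genes of the histone methyltransferase families and 4 DNA methyltransferase genes. Another 39 were sorted as erasers, which are 11 zinc-dependent deacetylases, 7 sirtuins, 18 histone demethylases and 3 TET dioxygenases. Among them 6 writers and 7 erasers are not held to act on histones or DNA, but were counted on their side. The remaining gene, Dnmt3aos, is an antisense RNA gene and was left on neither side. The compared groups were M2 cells, given IL-4 at 10 ng/ml, and M0 cells, which received no IL-4, with 3 RNA sequencing libraries each. All were RAW264.7, a mouse macrophage-like line, in a control version that had received a Cas9 plasmid lacking a guide RNA and was made to stand beside cells without E4BP4. Both groups grew in medium with 25 mM glucose, 10% serum and 1% antibiotics. How long IL-4 was given and whether the control version is a single clone are not stated in the sources used here.

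Acetyltransferases neutralize lysines on histone tails and are known from active promoters and enhancers, and deacetylases in corepressor complexes reverse this. Histone methyltransferases add methyl groups to lysines, where the mark can accompany active genes (the Kmt2 and Setd1 enzymes) or silent ones (the Polycomb enzymes Ezh1 and Ezh2). Demethylases of the JmjC type, which use oxygen and oxoglutarate, and the flavin enzymes Kdm1a and Kdm1b take such groups off again. DNA methyltransferases methylate cytosine, and TET dioxygenases oxidize that methyl group. In mouse macrophages the demethylase Kdm6b, also called JMJD3, is known for its link to IL-4, STAT6 and genes of alternative activation.

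Values are TPM, a transcript level scaled for gene length and depth by the authors, from poly(A) RNA purified from 200 ng of total RNA per library. Whole reads worked back from TPM and model length numbered 18344429, 18139902 and 19511155 in M2 replicates 1, 2 and 3, and 18110568, 18104946 and 15615641 in M0 replicates 1, 2 and 3. Separate cultures are not stated for the replicates, and the p-values therefore cover the spread between these libraries alone, part or all of which may be technical. The labels mark the M0 libraries, all 3 of them, and no M2 library as re-analysed, and a batch behind this mark cannot be told apart from IL-4. M2 replicate 3 stood apart from the other libraries in a trend with transcript length, described after the members' values, and counts are therefore given with and without it. The macrophage markers Spi1, Csf1r, Cd68, Lyz2 and Itgam lay between 120.4 and 1159 TPM in every library, and 8 markers of lymphoid, stromal, epithelial and endothelial cells between 0 and 0.922 TPM. The gene of the macrophage antigen F4/80, Adgre1, had 5.98 to 6.27 TPM in M2 and 2.15 to 3.08 TPM in M0 libraries. In bulk RNA, fewer cells with a transcript and less of it per cell cannot be told apart.

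The comparison asks how the transcripts of these enzymes differ with IL-4 polarization. Of the 63 members with at least 1 TPM in at least 3 libraries, 8 were higher and 17 lower in M2 at an adjusted p under 0.05, tested with limma on log2(TPM + 1) and Benjamini-Hochberg adjustment over all 11202 genes that met the same minimum. Over all tested genes 43.7% passed, 20.1% as higher and 23.7% as lower, so the members' 12.7% and 27.0% lay near that background. Among 30 tested writers 3 rose and 5 fell, with a median log2 fold change of -0.10. Among 32 tested erasers 5 rose and 12 fell, with a median of -0.15, against -0.03 over all tested genes. Whether writers and erasers differed from each other was not tested. All M2 libraries lay above all M0 libraries for 12 members and below them for 26, where the same held for 25.1% and 30.8% of all tested genes, or 55.9% in either direction.

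Kdm5b fell by the most on the log2(TPM + 1) scale, to 0.327 times its M0 level, and Dnmt3b rose by the most, to 1.89 times, while the other 23 called members lay between 0.608 and 1.54 times. Without M2 replicate 3, 11 members passed as higher and 19 as lower, beside 25.6% and 25.2% of all genes (50.8% in all). The members' median was then -0.01, with 5 writers and 6 erasers higher and 7 writers and 12 erasers lower. Without M0 replicate 1, 2 or 3, 16, 16 and 15 members passed in place of 25. Calls also fell over all tested genes, to 15.3%, 15.2% and 14.7% higher and 19.2%, 17.0% and 17.1% lower. With all 6 libraries those shares were 20.1% and 23.7%. The calls of 13 members held without each of the 6 libraries in turn: Kdm5b, which met the minimum through the M0 libraries alone, Kdm3a, Kdm8, Tet2, Sirt2, Sirt4, Hdac2, Hdac5, Kat14, Kat2b, Dnmt3b, Kmt5c and Setd7. The other 12 calls ended without at least 1 library, and those libraries are named with each gene.

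**Figure D1:**
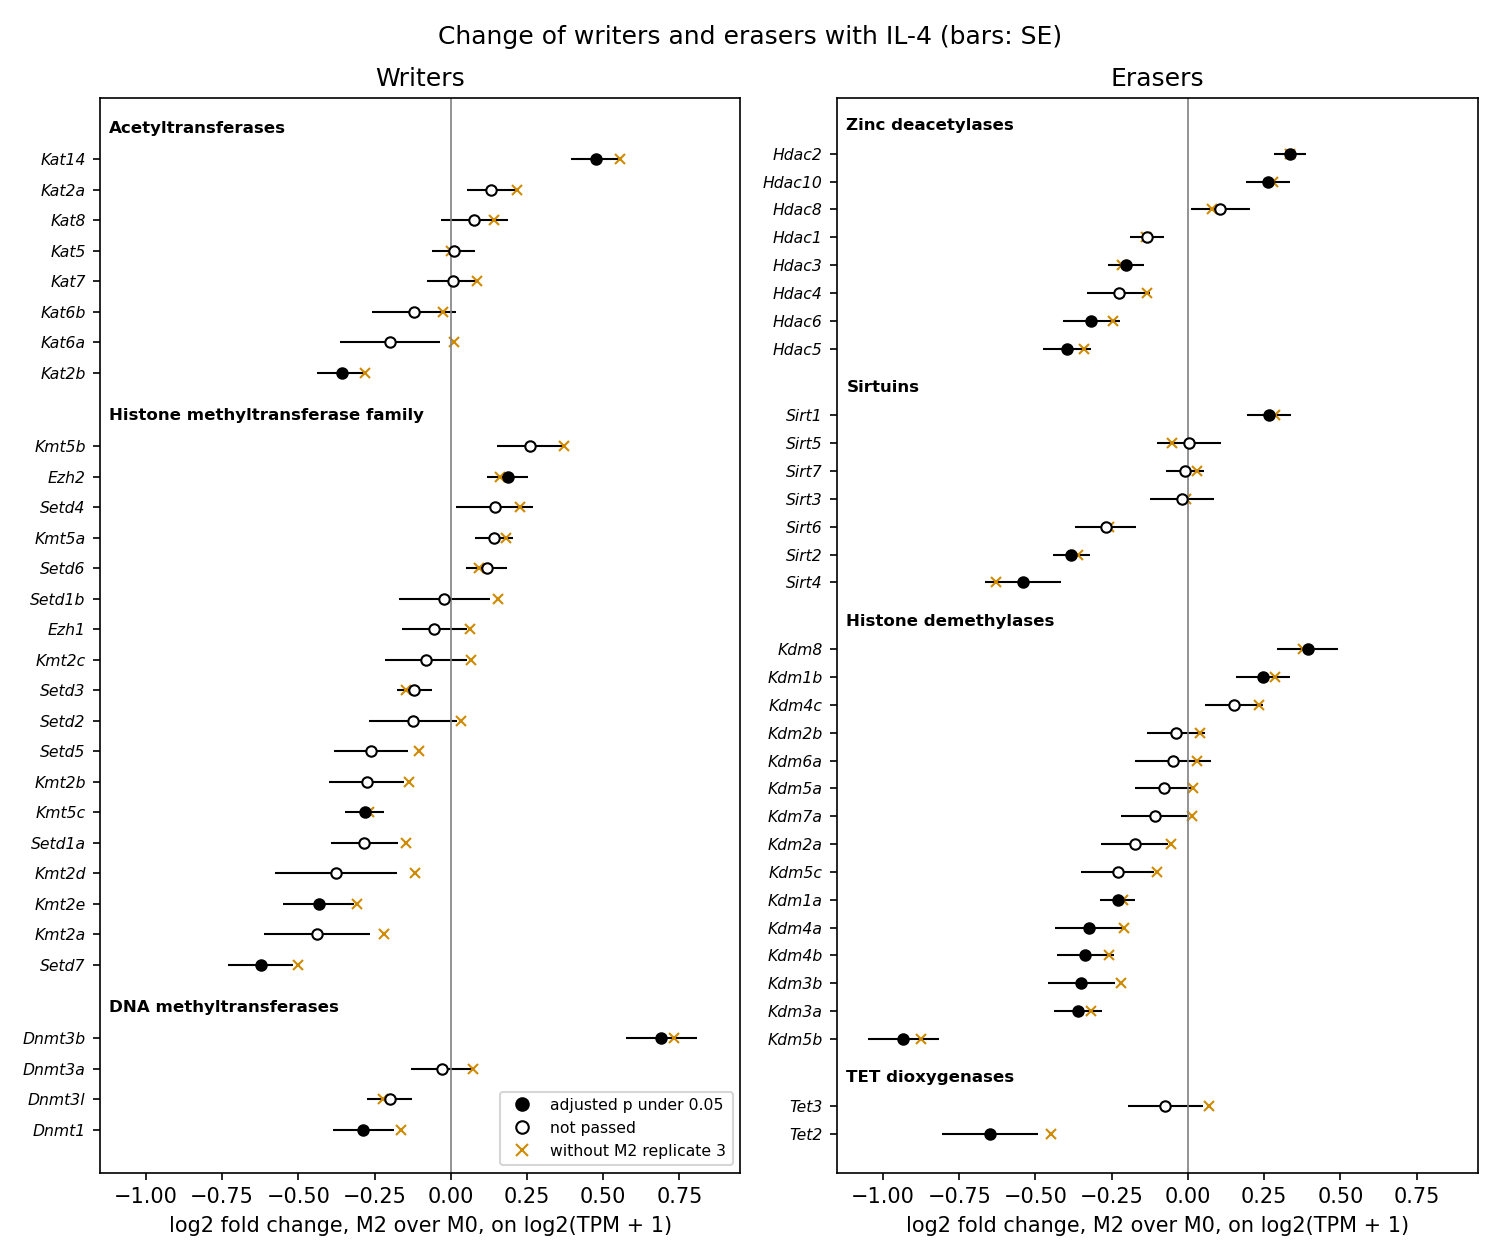
Log2 fold change of each tested writer (left) and eraser (right), M2 over M0, on log2(TPM + 1), by enzyme class, with bars of 1 SE. Filled points passed at an adjusted p under 0.05, open points did not, and crosses give the value without M2 replicate 3, which for most members lies to the right of the point. Kdm5b is the lowest at -0.93 and Dnmt3b the highest at 0.69.

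The promoter windows of the 2 called members that fell most and the 2 that rose most on the log2(TPM + 1) scale show what lies before their starts. By the ratio of mean TPM Kdm8, at 1.54 times, rose more than Kat14, at 1.41 times. Each runs from 250 bases before to 50 bases after the RefSeq start on GRCm38.p6, 5′ to 3′ on the gene's strand. Capitals mark the letters ACGTG, the form of the hypoxia response core that was searched, or their reverse complement. Other forms of that core were neither searched nor marked. The Kdm5b window is chr1:134559928-134560227 on the plus strand, that of Tet2 is chr3:133544341-133544640 on the minus strand, that of Dnmt3b is chr2:153649199-153649498 on the plus strand and that of Kat14 is chr2:144368782-144369081 on the plus strand.
Kdm5b: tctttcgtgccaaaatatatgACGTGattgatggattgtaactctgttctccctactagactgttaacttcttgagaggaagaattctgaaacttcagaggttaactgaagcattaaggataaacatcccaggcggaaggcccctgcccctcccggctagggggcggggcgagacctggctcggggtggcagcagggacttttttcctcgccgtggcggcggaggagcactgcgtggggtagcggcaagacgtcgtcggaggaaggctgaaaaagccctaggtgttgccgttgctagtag
Tet2: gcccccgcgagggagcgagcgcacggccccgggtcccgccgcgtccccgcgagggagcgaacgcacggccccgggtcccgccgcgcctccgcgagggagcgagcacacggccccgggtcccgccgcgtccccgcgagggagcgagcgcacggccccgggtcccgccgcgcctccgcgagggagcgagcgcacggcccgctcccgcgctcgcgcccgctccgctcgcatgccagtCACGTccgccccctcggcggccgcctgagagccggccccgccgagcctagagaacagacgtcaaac
Dnmt3b: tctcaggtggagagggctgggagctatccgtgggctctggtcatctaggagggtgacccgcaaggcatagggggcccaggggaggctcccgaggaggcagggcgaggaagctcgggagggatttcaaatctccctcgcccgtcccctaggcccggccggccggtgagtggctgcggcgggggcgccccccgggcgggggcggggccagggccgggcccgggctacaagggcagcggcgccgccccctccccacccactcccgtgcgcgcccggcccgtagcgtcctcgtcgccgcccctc
Kat14: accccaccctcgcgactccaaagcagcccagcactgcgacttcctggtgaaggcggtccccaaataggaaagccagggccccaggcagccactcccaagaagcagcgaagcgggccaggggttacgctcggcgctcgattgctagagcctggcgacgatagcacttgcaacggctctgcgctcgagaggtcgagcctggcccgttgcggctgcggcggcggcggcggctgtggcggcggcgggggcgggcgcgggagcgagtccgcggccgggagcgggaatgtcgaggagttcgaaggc
ACGTG starts 229 bases before the start site of Kdm5b, and its reverse complement begins 16 bases before that of Tet2. Neither Dnmt3b nor Kat14 holds a match to any of the motifs searched on both strands. In the table of promoters 55 of the 70 members had a window, and Kdm6b was not among them. TTC and GAA separated by 4 bases, the spacing that STAT6 prefers, were in 1 member window (1.82%, against 6.95% of all 32851 windows), that of Hdac4. TTC and GAA separated by 3 bases, the general STAT spacing, were in 5 (9.09%, against 8.30%). ACGTG was in 15 (27.3%, against 19.6%), among them 5 of 12 windows of genes that fell and 3 of 7 of genes that rose. CACGTG, the E-box that contains ACGTG, was in 6 (10.9%, against 7.15%). A match describes letters only.

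Histone demethylases held the most calls of any class by number, but not by share. Of 18 members 15 were tested, and 6 fell and 2 rose, with a median log2 fold change of -0.17. A larger share was called among zinc-dependent deacetylases, where 2 rose and 3 fell of 8 tested. Over all tested genes 20.1% were called higher and 23.7% lower, and whether the demethylases differed from that background was not tested. Kdm5b, which removes the methyl mark of active promoters, had 0.802, 0.932 and 0.651 TPM in M2 libraries and 2.08, 2.60 and 2.61 TPM in M0 libraries. Every M2 library lay below every M0 library, at 3.06-fold lower mean TPM. It met the minimum of 1 TPM only through the M0 libraries, so its call among the filtered genes is a description. Without any minimum limma gave a log2 fold change of -0.93 (SE 0.11, adjusted p = 0.00188). The values rested on 237 reads over the M2 libraries and 669 over the M0 libraries. Its relatives stayed within the spread of the libraries: Kdm5a had 13.9 ± 1.66 TPM in M2 and 14.6 ± 0.818 TPM in M0 (SD, n = 3 each). Kdm5c, on the X chromosome, had 14.2 ± 2.26 TPM in M2 and 16.7 ± 1.59 TPM in M0, and neither passed. The Kdm5b model spans chr1:134560178-134632878 on the plus strand of mm10.

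The demethylases of the Kdm3 and Kdm4 families, which act on repressive methyl marks of histone H3, were lower in all tested members but 1. Kdm3a had 12.3, 13.3 and 11.6 TPM in M2 libraries and 15.1, 16.7 and 16.7 TPM in M0 libraries, without overlap (log2 fold change -0.36, SE 0.08, limma adjusted p = 0.00611). Its relative Kdm3b had 13.0 ± 2.10 TPM in M2 and 16.7 ± 0.677 TPM in M0, and its call ended without any of the M0 libraries. Kdm4a averaged 10.3 ± 1.53 TPM in M2 and 13.1 ± 0.903 TPM in M0 (limma adjusted p = 0.0397), and this call too ended without any M0 library. Kdm4b averaged 6.17 ± 0.680 TPM in M2 and 8.03 ± 0.119 TPM in M0 (limma adjusted p = 0.0174), and ended without M0 replicate 2 or 3. The remaining one, Kdm4c, had 7.12 ± 0.789 TPM in M2 and 6.29 ± 0.151 TPM in M0 and did not pass (log2 fold change 0.15, limma adjusted p = 0.228). Without M2 replicate 3 it passed as higher (log2 fold change 0.23, limma adjusted p = 0.0219). Kdm4d, another relative, was under the minimum and had 9 reads over the M2 libraries and 1 over the M0 libraries.

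The flavin demethylases were called in opposite directions. Kdm1a, also called LSD1, a partner of the CoREST corepressor, had 42.6, 44.9 and 42.1 TPM in M2 libraries and 49.5, 50.1 and 53.0 TPM in M0 libraries (log2 fold change -0.23, SE 0.06, limma adjusted p = 0.0111). Kdm1b, also called LSD2 and known for its role in oocytes, had 15.0, 18.1 and 15.1 TPM in M2 libraries and 12.7, 13.9 and 13.4 TPM in M0 libraries (log2 fold change 0.25, SE 0.09, limma adjusted p = 0.0493). The groups overlapped for neither gene. The Kdm1b call held in only 1 of the 6 fits that leave out a library, the fit without M2 replicate 3, and the Kdm1a call ended without M0 replicate 3. Kdm1b also shares 9.99% of its exonic bases with Dek on the other strand, and no source used here gives the strand setting of the counting.

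The remaining demethylase to pass was Kdm8, a JmjC protein whose activity on histones is disputed. It had 2.04, 2.15 and 2.20 TPM in M2 libraries and 1.28, 1.54 and 1.33 TPM in M0 libraries, without overlap (log2 fold change 0.39, SE 0.10, limma adjusted p = 0.0118), on 249 and 149 reads. Kdm2a, Kdm2b, Kdm6a and Kdm7a did not pass, with log2 fold changes between -0.17 and -0.04. The Y-linked Kdm5d had 1 read over the M2 libraries and 0 over the M0 libraries.

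Kdm6b removes the methyl mark that Polycomb enzymes place. It had 0.532, 0.499 and 0.465 TPM in M2 libraries and 0.729, 1.10 and 0.822 TPM in M0 libraries. Every M2 library lay below every M0 library, and the mean was 1.77-fold lower in M2. These values rest on 56, 51 and 55 reads in the M2 libraries and on 78, 113 and 74 reads in the M0 libraries. The gene was under the minimum of 1 TPM and so outside the main comparison. By itself it gave p = 0.1 in a two-sided exact permutation test of the TPM values, the smallest p that 3 libraries against 3 allow. Without the minimum, limma gave a log2 fold change of -0.32 and an adjusted p of 0.0339, in a comparison where 21.8% of 19655 genes passed (10.0% higher, 11.8% lower). On recovered reads, limma-voom without the minimum gave -0.77 and an adjusted p of 0.00668, where 26.6% of genes passed (13.2% higher, 13.4% lower). In the authors' deposited table the log2 fold change was -0.78, with an adjusted p of 0.00491. Kdm6a, also called UTX, which removes the same mark, had 4.16 ± 0.738 TPM in M2 and 4.32 ± 0.480 TPM in M0, and did not pass.

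Of 4 genes reported as targets of Kdm6b in mouse macrophages, 1 met the minimum, through its M2 libraries alone, and was called higher. Arg1, the arginase of alternative activation, rose to 16.0, 14.9 and 14.9 TPM in M2 libraries, against 0.130, 0.135 and 0.257 TPM in M0 libraries, on 1075 reads in M2 and 11 in M0. The other three lay under the minimum. Irf4, a transcription factor gene, had 70 reads in M2 and 73 in M0. Chil3 had 5 reads in M2 and 0 in M0, and Retnla 2 in M2 and 1 in M0. Whether Kdm6b acts on any of these was not measured.

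**Figure D2:**
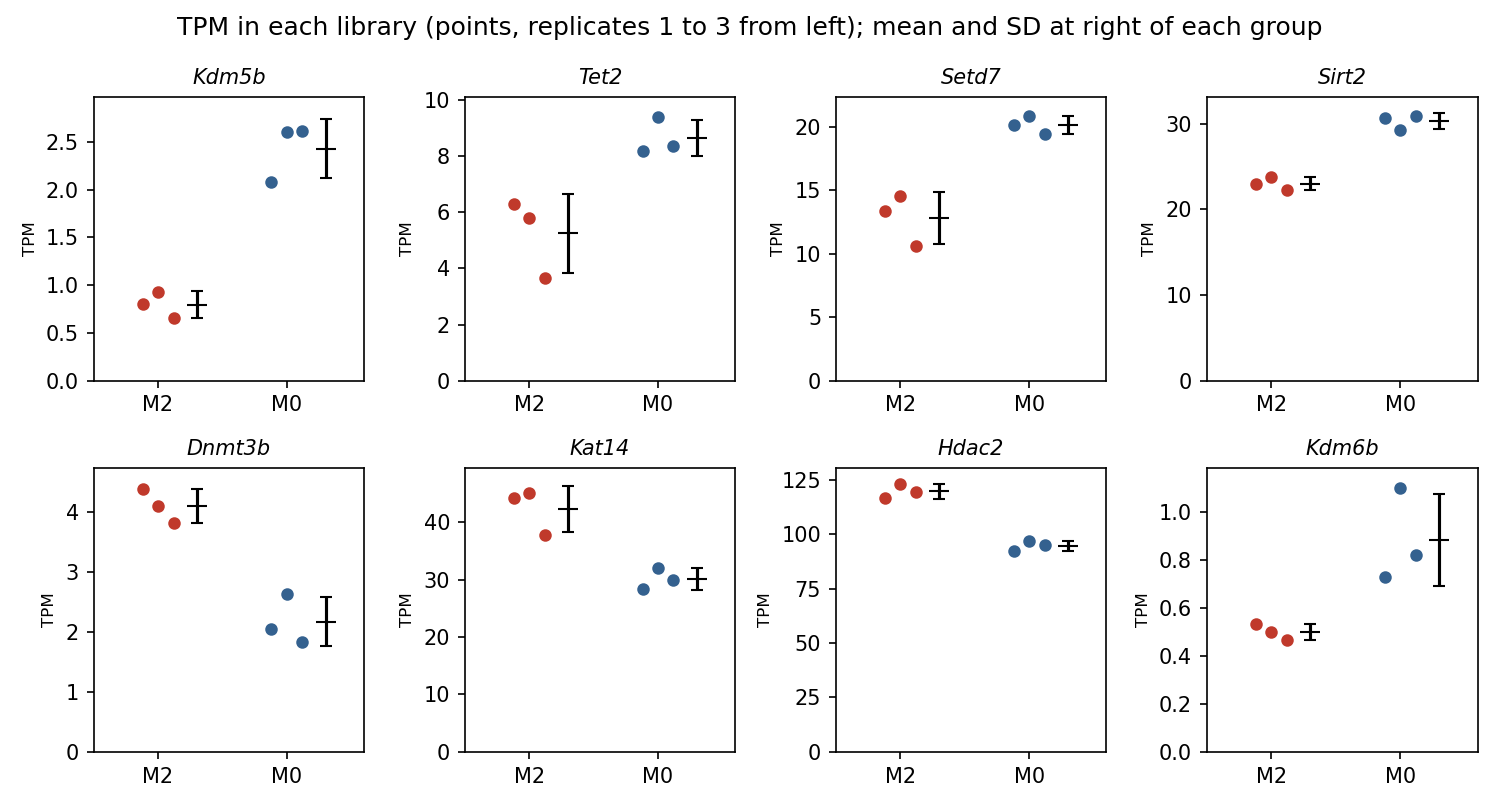
TPM of 8 members in each library, M2 at the left and M0 at the right of each panel, with the mean and SD of 3 libraries beside the points. In every panel the groups are apart: Kdm5b, Tet2, Setd7, Sirt2 and Kdm6b lie lower and Dnmt3b, Kat14 and Hdac2 higher in M2. Axes start at 0 and differ between panels.

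Enzymes of DNA methylation moved in different directions. Dnmt3b, a methyltransferase that sets new methylation, had 4.39, 4.10 and 3.81 TPM in M2 libraries and 2.05, 2.63 and 1.84 TPM in M0 libraries. The groups did not overlap, and the mean was 1.89-fold higher in M2 (log2 fold change 0.69, SE 0.12, limma adjusted p = 0.00160), on 772 and 380 reads. Dnmt3a, its more abundant relative, had 40.7 ± 4.97 TPM in M2 and 41.5 ± 3.86 TPM in M0 and did not pass. Dnmt1, which copies methylation after replication, had 86.9, 87.8 and 67.4 TPM in M2 libraries and 92.0, 103 and 99.0 TPM in M0 libraries (log2 fold change -0.29, SE 0.10, limma adjusted p = 0.0455). M2 replicate 3 was the lowest of the Dnmt1 values, and the call ended without any of the M0 libraries. Dnmt3l, a partner protein without activity of its own, had 13.4 ± 0.373 TPM in M2 and 15.5 ± 1.02 TPM in M0 and passed only without M2 replicate 3 or with the length trend removed.

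Among the TET dioxygenases, Tet2, often mutated in human blood cancers, had 6.29, 5.80 and 3.66 TPM in M2 libraries and 8.17, 9.38 and 8.36 TPM in M0 libraries. Its M2 values all lay below its M0 values, M2 replicate 3 lowest (log2 fold change -0.65, SE 0.16, limma adjusted p = 0.0103). Without M2 replicate 3 the log2 fold change was -0.45 and the call held (limma adjusted p = 0.00227). Tet3 had 12.7 ± 2.28 TPM in M2 and 13.3 ± 0.924 TPM in M0 and did not pass. Tet1 had 12 reads in M2 and 12 in M0.

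Deacetylases of the zinc-dependent family had 8 tested members, of which 2 rose and 3 fell. Hdac2, a core of the NuRD, Sin3 and CoREST complexes and the most abundant of the 70 genes, had 116, 123 and 119 TPM in M2 libraries and 92.1, 96.8 and 95.0 TPM in M0 libraries. All M2 libraries lay above all M0 libraries (log2 fold change 0.33, SE 0.05, limma adjusted p = 0.00101). Hdac1, its close relative in the same complexes, had 46.7, 49.0 and 48.3 TPM in M2 libraries and 53.6, 53.8 and 50.8 TPM in M0 libraries. These groups did not overlap either, but Hdac1 did not pass (log2 fold change -0.13, limma adjusted p = 0.0782). Hdac3, the enzyme of the NCoR and SMRT corepressors, averaged 25.8 ± 0.654 TPM in M2 and 29.9 ± 1.00 TPM in M0 (log2 fold change -0.20, limma adjusted p = 0.0229). The Hdac3 call ended without M0 replicate 1, M0 replicate 2 or M2 replicate 2, and with limma-voom on recovered reads (adjusted p = 0.0602). Hdac8 did not pass.

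The class II deacetylases that passed went both ways. Hdac5, a signal-dependent repressor that shuttles between nucleus and cytoplasm, had 25.7, 25.9 and 22.9 TPM in M2 libraries and 30.1, 35.1 and 33.9 TPM in M0 libraries, without overlap (log2 fold change -0.40, SE 0.08, limma adjusted p = 0.00393). Hdac6, which deacetylates tubulin in the cytoplasm, had 4.42 ± 0.453 TPM in M2 and 5.74 ± 0.0747 TPM in M0 (limma adjusted p = 0.0229), a call that ended without any of the M0 libraries. Hdac10, a deacetylase of polyamines, had 12.4 ± 0.348 TPM in M2 and 10.2 ± 0.292 TPM in M0 (log2 fold change 0.26, limma adjusted p = 0.0159). It held only without M2 replicate 1 or 3. Hdac4 averaged 4.55 ± 0.607 TPM in M2 and 5.47 ± 0.208 TPM in M0 and did not pass. With limma-voom on recovered reads it passed as lower (adjusted p = 0.0329). Hdac7 and Hdac9, of the same class as Hdac5, were under the minimum, with 95 and 209 reads for Hdac7 in M2 and M0 and 69 and 108 reads for Hdac9. Without the minimum both passed as lower (limma adjusted p = 0.0220 for Hdac7 and 0.0237 for Hdac9). Hdac6 did not pass in that fit (limma adjusted p = 0.0626), where 11.8% of all genes were lower. Hdac11 had 35 reads in M2 and 49 in M0 and did not pass that way (limma adjusted p = 0.0672).

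Sirtuins, the NAD-dependent deacylases, had 7 tested members, of which 1 rose and 2 fell. Sirt2, a mainly cytosolic deacetylase, had 23.0, 23.7 and 22.3 TPM in M2 libraries and 30.7, 29.2 and 30.9 TPM in M0 libraries. The groups were well apart (log2 fold change -0.38, SE 0.06, limma adjusted p = 0.00117). Sirt4, a mitochondrial sirtuin, had 2.38, 3.22 and 3.53 TPM in M2 libraries and 5.10, 4.99 and 4.44 TPM in M0 libraries (log2 fold change -0.54, SE 0.12, limma adjusted p = 0.00769), again without overlap. For Sirt4, M2 replicate 3 was the highest of the M2 libraries. Sirt1, the nuclear deacetylase, had 16.7, 18.03 and 16.7 TPM in M2 libraries and 13.3, 14.7 and 14.2 TPM in M0 libraries (log2 fold change 0.27, SE 0.07, limma adjusted p = 0.0159). The groups for Sirt1 did not overlap, but its call ended without M0 replicate 1, M0 replicate 3 or M2 replicate 2. Sirt3, Sirt5 and the nucleolar Sirt7 had log2 fold changes between -0.02 and 0.00. Sirt6, a chromatin deacetylase, had 5.11 ± 0.264 TPM in M2 and 6.39 ± 0.744 TPM in M0 and missed the threshold (log2 fold change -0.27, limma adjusted p = 0.0562).

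Of the 8 acetyltransferases 1 rose, 1 fell and 6 did not pass. Kat14, a subunit of the ATAC complex, had 44.2, 45.0 and 37.8 TPM in M2 libraries and 28.4, 32.1 and 29.9 TPM in M0 libraries. Every M2 library was above every M0 library (log2 fold change 0.48, SE 0.08, limma adjusted p = 0.00179). Kat14 shares 18.2% of its exonic bases with Pet117, a mitochondrial assembly factor gene on the same strand, so part of its reads may belong to that gene. Kat2b, also called PCAF, had 19.8, 20.8 and 17.2 TPM in M2 libraries and 23.7, 26.0 and 25.0 TPM in M0 libraries, without overlap (log2 fold change -0.36, SE 0.08, limma adjusted p = 0.00768). Kat2a, also called GCN5, which takes the same place as Kat2b in the SAGA and ATAC complexes, had 43.2 ± 4.43 TPM in M2 and 39.2 ± 1.59 TPM in M0 and did not pass (log2 fold change 0.13, limma adjusted p = 0.212). Without M2 replicate 3 Kat2a passed as higher (log2 fold change 0.22, limma adjusted p = 0.0101). Kat5, Kat6a, Kat6b, Kat7 and Kat8 of the MYST family lay between -0.20 and 0.08 on the log2 scale and did not pass.

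Of the 18 members of the histone methyltransferase families 1 rose, 3 fell and 14 did not pass. Setd7, which adds a single methyl group to histone H3 and to other proteins, had 13.3, 14.5 and 10.6 TPM in M2 libraries and 20.1, 20.8 and 19.4 TPM in M0 libraries. All M2 values lay below all M0 values (log2 fold change -0.62, SE 0.11, limma adjusted p = 0.00175), and the fold without M2 replicate 3 was -0.50. Kmt5c, which adds further methyl groups to histone H4 in heterochromatin, had 16.5, 16.5 and 16.0 TPM in M2 libraries and 19.6, 20.9 and 19.8 TPM in M0 libraries (log2 fold change -0.28, SE 0.06, limma adjusted p = 0.00714). Its relative Kmt5b had 8.57 ± 1.31 TPM in M2 and 6.94 ± 0.249 TPM in M0, every M2 library above every M0 library, and missed the threshold (log2 fold change 0.26, limma adjusted p = 0.0832). Without M2 replicate 3 Kmt5b passed (log2 fold change 0.37, limma adjusted p = 0.00382). Kmt5a, which adds the first methyl group at the same lysine of histone H4, missed the threshold with that library and passed without it (0.14 with it and 0.18 without it on the log2 scale, limma adjusted p = 0.0915 and 0.0217). With all 6 libraries Kmt5a also passed as higher on the authors' log2 values, with median-ratio scaling, with limma-voom on recovered reads and with the length trend removed (limma adjusted p between 0.0124 and 0.0292).

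Ezh2, the catalytic subunit of the Polycomb repressive complex, had 64.9, 75.1 and 73.9 TPM in M2 libraries and 61.0, 62.2 and 63.9 TPM in M0 libraries. The groups did not overlap (log2 fold change 0.19, SE 0.07, limma adjusted p = 0.0488), but the call held in only 1 of the 6 fits that leave out a library, the fit without M2 replicate 1. Ezh1 had 9.72 ± 1.45 TPM in M2 and 10.1 ± 0.0907 TPM in M0 and did not pass. Kmt2e, a family member held to lack methyltransferase activity, had 9.08, 8.97 and 6.72 TPM in M2 libraries and 10.6, 12.3 and 11.3 TPM in M0 libraries (log2 fold change -0.43, SE 0.12, limma adjusted p = 0.0154). The Kmt2e call ended without M0 replicate 2, and the gene shares 13.3% of its exonic bases with Srpk2 on the other strand.

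The large enzymes Kmt2a, Kmt2b, Kmt2c and Kmt2d, which methylate histone H3 at promoters and enhancers, did not pass in the main comparison. Kmt2a had 6.33, 5.64 and 3.42 TPM in M2 libraries and 6.58, 7.85 and 6.98 TPM in M0 libraries, and its log2 fold change of -0.44 was the largest in size of the members that did not pass (limma adjusted p = 0.0697). Kmt2d had 11.8, 11.0 and 6.20 TPM in M2 libraries and 10.6, 13.6 and 13.2 TPM in M0 libraries. In both genes M2 replicate 3 lay far below the other M2 libraries. Without it the log2 fold changes were -0.22 for Kmt2a and -0.12 for Kmt2d. With limma-voom on the recovered reads of all 6 libraries, Kmt2a and Kmt2b passed as lower (adjusted p = 0.0281 and 0.0417). Both also passed as lower in the authors' deposited table (adjusted p = 0.00915 and 0.0452). Kmt2c and Kmt2d passed under none of the alternatives. Setd1a, of the related Set1 enzymes, shares 53.3% of its exonic bases with Gm49388 on the same strand, so its level of 14.8 ± 2.46 TPM in M2 and 18.1 ± 0.195 TPM in M0 is uncertain.

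The remaining Setd genes did not pass either. Setd2, which marks the bodies of transcribed genes, had 11.9 ± 2.32 TPM in M2 and 13.0 ± 1.69 TPM in M0. Setd5, whose activity is disputed, had 21.6, 22.3 and 15.6 TPM in M2 libraries and 22.7, 24.1 and 24.3 TPM in M0 libraries (log2 fold change -0.26, limma adjusted p = 0.112). Its M2 libraries all lay below its M0 libraries, M2 replicate 3 by the most. Setd3, known as a methyltransferase of actin, had 39.8 ± 1.31 TPM in M2 and 43.3 ± 1.29 TPM in M0, and passed as lower only without M2 replicate 3 (log2 fold change -0.15, limma adjusted p = 0.0414). Setd1b, Setd4 and Setd6 lay between -0.02 and 0.14 on the log2 scale. Dnmt3aos, the antisense RNA gene at Dnmt3a, had 1.77, 1.63 and 1.71 TPM in M2 libraries and 1.43, 1.43 and 1.20 TPM in M0 libraries, without overlap, on 113 recovered reads in M2 and 83 in M0, and did not pass (log2 fold change 0.20, limma adjusted p = 0.134). Its exonic bases are shared with no other gene. Without a known strand setting its reads still cannot be told apart from those of any transcripts on the other strand.

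M2 replicate 3 carried a trend with transcript length that touched many members. Smoothed over all tested genes, its log2(TPM + 1) at a model length of 8000 bases lay at -0.30 relative to the mean of the 6 libraries, against 0.03 and 0.07 in M2 replicates 1 and 2 and -0.02 to 0.14 in the M0 libraries. The tested members have long models, with a median of 4073 bases against 2644.5 over all tested genes. M2 replicate 3 was the lowest M2 library for 47 of 63 members (74.6%, against 59.0% of all tested genes). It was the lowest for 27 of 27 members of at least 5000 bases and for 20 of 36 shorter ones. Among the 27 long members limma called 0 as higher and 7 as lower, where 11.4% and 26.0% of all long genes were called so. At an unadjusted p under 0.05, 1 long member was higher, and limma-voom on recovered reads called 1. With the length trend removed from each library, an alternative added after the data were seen, all 25 calls held, and 13 members passed as higher and 22 as lower, beside 28.4% and 27.1% of all genes (55.6% in all). The 10 further members were Dnmt3a, Kat2a, Kdm4c, Kmt5a and Kmt5b as higher and Dnmt3l, Hdac1, Kmt2a, Setd1a and Sirt6 as lower. What lies behind the trend was not tested.

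**Figure D3:**
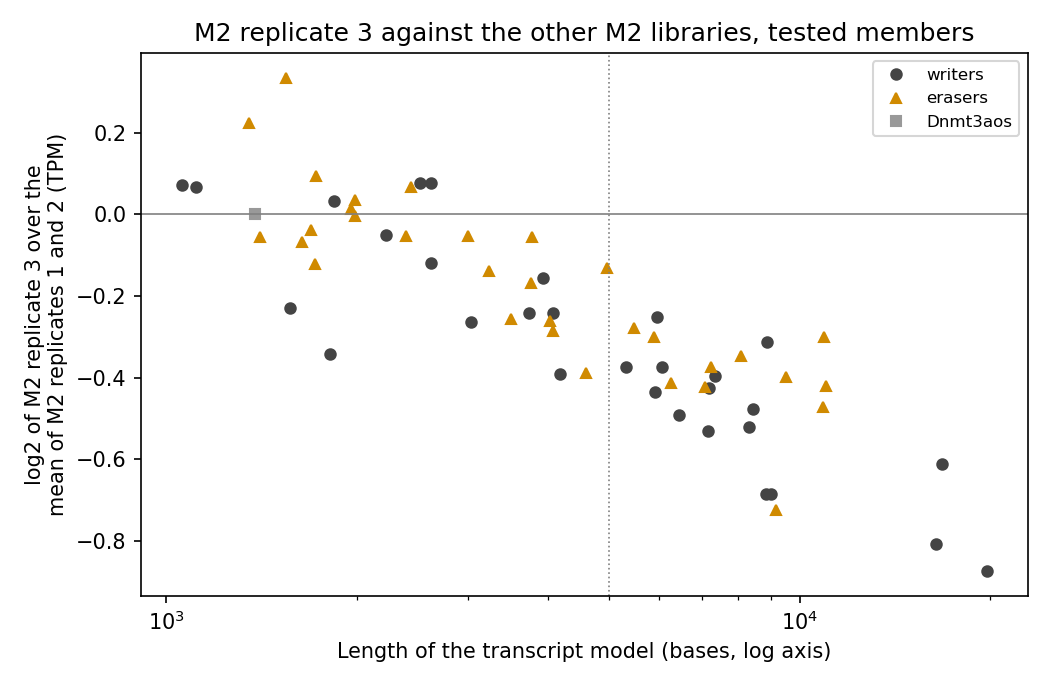
Log2 ratio of TPM in M2 replicate 3 to the mean of M2 replicates 1 and 2 for the 63 tested members (vertical axis) against the length of the transcript model in bases (log axis). Circles are writers, triangles erasers and the square Dnmt3aos, and the dotted line marks 5000 bases. Every member right of that line lies below 0.

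Summed over their members, writers and erasers each kept about the same total. Writers came to 639, 656 and 556 TPM in M2 libraries and 617, 666 and 641 TPM in M0 libraries. Erasers came to 544, 564 and 509.7 TPM in M2 libraries and 551, 584 and 569 TPM in M0 libraries. The ratio of writers to erasers was 1.17, 1.16 and 1.09 in M2 and 1.12, 1.14 and 1.13 in M0, so the groups overlapped. Histone methyltransferase family transcripts over histone demethylase transcripts came to 1.70, 1.68 and 1.78 in M2 and 1.62, 1.58 and 1.57 in M0, without overlap. The ratio of acetyltransferases to zinc-dependent deacetylases overlapped, at 0.645 ± 0.0578 in M2 and 0.626 ± 0.00402 in M0 (SD, n = 3 each). The sirtuin sum was 89.3 ± 2.33 TPM in M2 and 96.9 ± 0.214 TPM in M0, without overlap. These sums weigh abundant genes most and were given no test.

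Ratios between relatives compare transcripts within 1 library, so that any shift common to both cancels. The length trend of M2 replicate 3 does not cancel where lengths differ, as for Kmt5b (6057 bases) and Kmt5c (2224), or Dnmt3b (3938) and Dnmt3a (8893). Of 18 pairs 13 (72.2%) had M2 ratios that did not overlap the M0 ratios, beside 55.6% of all 1953 pairs of tested members. These are a description with no test. Kdm6b over Kdm6a is among the 13 but outside the 1953 pairs, as Kdm6b was under the minimum. Kdm5a and Kdm4b each enter more than 1 pair. Hdac2 over Hdac1 was 2.49, 2.51 and 2.47 in M2 and 1.72, 1.80 and 1.87 in M0. Kat2a over Kat2b was 2.28, 2.22 and 2.22 in M2 and 1.58, 1.53 and 1.62 in M0. In both pairs M2 replicate 3 lay beside the other M2 libraries. Kdm4c over Kdm4b was 1.15 ± 0.0288 in M2 and 0.784 ± 0.0277 in M0, and Kmt5b over Kmt5c was 0.523 ± 0.0713 in M2 and 0.345 ± 0.0105 in M0. Dnmt3b stood at 0.101 ± 0.00826 of Dnmt3a in M2 and at 0.0524 ± 0.00808 in M0, so Dnmt3a was the more abundant in both. Kdm5b stood at 0.0571 ± 0.00368 of Kdm5a in M2 and at 0.166 ± 0.0120 in M0, and Kdm6b at 0.122 ± 0.0196 of Kdm6a in M2 and at 0.203 ± 0.0236 in M0. Tet2 over Tet3 was 0.410 ± 0.0503 in M2 and 0.651 ± 0.0263 in M0. Kdm1b over Kdm1a, the pair called in opposite directions, was 0.371 ± 0.0280 in M2 and 0.262 ± 0.0129 in M0. The ratios overlapped for Kat6a over Kat6b, Kmt2c over Kmt2d, Ezh2 over Ezh1, Kdm3a over Kdm3b and Kdm4a over Kdm4b.

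**Figure D4:**
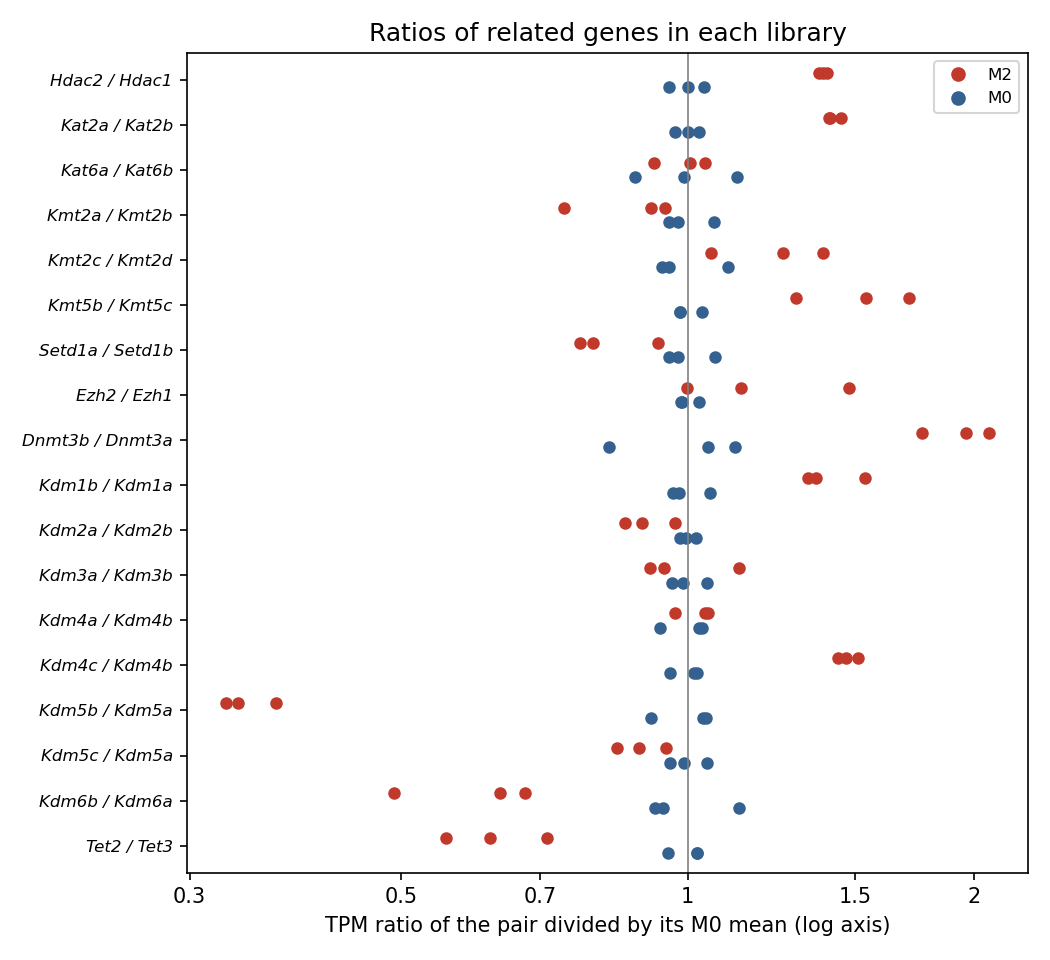
TPM ratio of 18 pairs of related members in each library, divided by the mean ratio of the M0 libraries (log axis), with M2 points above M0 points in each row. Hdac2 over Hdac1 and Kat2a over Kat2b lie to the right of the M0 points in all M2 libraries, and Kdm5b over Kdm5a and Tet2 over Tet3 to the left.

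Proteins that work with these enzymes were read from lists drawn up by function, whose counts stand beside the 20.1% of all tested genes called higher and the 23.7% called lower. With the length trend removed these shares were 28.4% and 27.1%, and without M2 replicate 3 they were 25.6% and 25.2%. Without any one of the M0 libraries they were 14.7% to 15.3% and 17.0% to 19.2%. Of 9 tested partners of Ezh1 and Ezh2 in the Polycomb complex 3 rose and 1 fell. With the length trend removed 6 were higher and 2 lower, and without M2 replicate 3 the counts were 4 and 1. Eed, the subunit that binds the Polycomb mark, had 104 ± 4.96 TPM in M2 and 64.3 ± 2.36 TPM in M0 (log2 fold change 0.68, limma adjusted p = 4.58e-05), and Jarid2 and Rbbp7 also rose, while Phf1 fell. Of 11 partners of the Kmt2 and Setd1 enzymes 2 rose, Wdr82 and Wdr5, and 2 fell, Men1 and Ncoa6, and of these Wdr82 alone held without each library in turn. The Wdr5 call ended without M0 replicate 3, that of Men1 without M0 replicate 1 or 2, and that of Ncoa6 without any one of the M0 libraries. The list had 3 higher and 2 lower without M2 replicate 3, and with the length trend removed 4 and 2. Of 22 deacetylase corepressor subunits 2 rose and 8 fell. The largest falls there were those of the NuRD helicase genes Chd3 (11.9 ± 1.44 TPM in M2 and 19.1 ± 1.39 TPM in M0) and Chd4 (57.1 ± 7.77 TPM in M2 and 84.0 ± 7.97 TPM in M0), and Gps2 and Mbd3 rose. The Gps2 call ended without M0 replicate 3. The counts of the corepressor list were 2 and 7 without M2 replicate 3, and with the length trend removed 2 and 10. Without any one of the M0 libraries 6 were lower. The Rcor1 call held only in the fit without M2 replicate 2 among those that leave out a library. That of Suds3 ended without any one of the M0 libraries or M2 replicate 1.

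Related enzymes with other names were counted in the same way. Of 8 protein arginine methyltransferases 5 rose and 1 fell: Prmt3 had 55.9 ± 2.65 TPM in M2 and 34.0 ± 1.21 TPM in M0, Prmt6 and Prmt7 rose as well, and Prmt2 fell to 6.95 ± 0.315 TPM in M2, against 12.7 ± 0.489 TPM in M0. These 4 calls held without each library in turn, while that of Prmt5 ended without M0 replicate 2 and that of Prmt1 without M0 replicate 2 or 3. The number of these genes called higher was thus 3 without M0 replicate 2, and 6 without M2 replicate 3. Of 16 further histone lysine methyltransferases 3 rose and 2 fell, with Smyd5 the largest rise (log2 fold change 0.57, limma adjusted p = 0.000311) and Nsd3 the largest fall (log2 fold change -0.52, limma adjusted p = 0.00392). The counts were 5 higher and 2 lower without M2 replicate 3, and with the length trend removed 7 and 3. Fewer were called lower without M0 replicate 3, 1 of the 16, where 2 were higher. Of 8 further acetyltransferases limma called 2 as higher, Naa50 and Naa40, and 0 as lower, while 1 was lower at an unadjusted p under 0.05 and 1 by limma-voom. Without M2 replicate 1 or 2, 1 was called lower. Naa40 did not pass without M0 replicate 1 or 2 or M2 replicate 1 or 2, and Ep300 and Crebbp, the coactivators p300 and CBP, did not pass under any alternative run. Of 8 further genes of the demethylase family 3 rose and 2 fell, with Jmjd1c and Phf8 the largest of each. Among those that rose is Jarid2, already counted with the Polycomb partners. The Jmjd1c call ended without M0 replicate 1, M2 replicate 1 or M2 replicate 2. Without any one of the M0 libraries 1 gene of this list was lower.

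The authors' deposited table, made from the same libraries, lists all 70 members, 4 of them under older symbols. Of the 63 members tested here 30 had an adjusted p under 0.05 in that table, 10 higher and 20 lower in M2. The share of all genes that passed there was not counted, so these numbers have no background of their own. By limma-voom on recovered reads, another test, 24.0% of all tested genes were higher and 23.9% lower. It shared 24 of the 25 calls made here in the same direction, and Hdac3 did not pass there (adjusted p = 0.146 in the authors' deposited table).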

How the data were processed

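RNA sequencing of poly(A) RNA gave 6 libraries, 3 M2 and 3 M0, grouped by their titles. Tools listed in the submitters' processing notes are HOMER 4.11.1, STAR 2.7.5a, DESeq2 and bcl2fastq, with mm10 as build. Annotation and strand setting were not stated there. Per the file headers, 1 deposited table holds the authors' TPM per library with the transcript model used for each gene and its length. The other holds, per the file headers, the authors' log2 fold changes with a p-value raw and adjusted, the fold positive where M2 is higher in 3794 of 3794 genes checked, and per-library values by the authors that were read as log2 from their range.

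Genes reaching 1 TPM in 3 or more libraries were tested with limma 3.58.1 in R 4.3.3 on log2(TPM + 1) by group, with a variance trend and Benjamini-Hochberg adjustment over 11202 genes. Calls were made at an adjusted p under 0.05. This scale understates the change of low genes. The fit was tested on simulated data. Tables and figures were made in Python 3.11.15 (scipy 1.17.1, pandas 2.3.3, numpy 2.4.6, matplotlib 3.10.9). In each library, TPM times length fell on multiples of a fixed step: 99.99% to 100.0% of the values checked lay within 0.1 read of a whole number, which gives the reads printed. Recovered reads of libraries in the same group differed by a chi-square of 2.13 to 18.6 per degree of freedom, so no library was a duplicate.

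Named with values were Kdm6b, called members with a log2 fold change of at least 0.3 in size, the most abundant and the most changed member of each class, and their relatives. Of the companion lists the counts and up to 4 called genes were taken. Others were named to complete counts or comparisons and were chosen after their values were seen. The members and lists were chosen with earlier results of these data known. Alternatives were a pseudocount of 0.1, no minimum, a minimum of 5 TPM, median-ratio scaling, limma-voom with trimmed-mean scaling on recovered reads, the authors' log2 values, a replicate block, each library left out, and members acting on histones or DNA only. Removal of the length trend (a smooth of each library's deviation on log2 length) and limma-voom without a minimum were added after seeing the data. Overlaps of exons and promoter windows come from RefSeq and gene tables for GRCm38.p6. Some genes of the lists are not reported here.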

Additional observations from a re-analysis of the deposited data

How the results depend on the processing

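All 25 called members kept their direction under every alternative that could be fitted (4 of them, Kdm5b, Kdm8, Sirt4 and Dnmt3b, lay under the minimum of 5 TPM), and Dnmt3a alone passed with its sign turned: its log2 fold change was -0.03 as reported and 0.12 (limma adjusted p = 0.0478) with the length trend removed. Over the fits that each leave out 1 library, 15 to 30 members passed in place of 25, 4 to 11 as higher and 11 to 20 as lower. Of all tested genes 14.7% to 25.6% were then called higher and 17.0% to 25.2% lower. In the same fits 2 to 5 writers were higher and 3 to 8 lower, and 2 to 6 erasers were higher and 7 to 12 lower. Of the 37 members named by rule 13 to 23 passed in place of 21. That rule took in members because they were called here, so this count is partly fixed by the choice. Without the minimum 6 members were higher and 16 lower, beside 10.0% and 11.8% of all 19655 genes. Of the main calls, those of Dnmt1, Kdm4a, Kdm1b, Ezh2, Kdm3b and Hdac6 did not pass there (limma adjusted p between 0.0626 and 0.118). With the length trend removed 13 members were higher, 7 writers were higher and 8 lower, beside 28.4% and 27.1% of all genes. On the authors' log2 values 6 writers were higher and 8 lower, with limma-voom 5 and 8, and with median-ratio scaling 5 were higher. In the main comparison 26 tested erasers were held to act on histones or DNA. Of these 3 were higher and 10 lower (11.5% and 38.5%), beside 20.1% and 23.7% of all genes. Of 24 such writers 3 were higher and 4 lower (12.5% and 16.7%). For Kdm6b the log2 difference was -0.70 with a pseudocount of 0.1. Without the minimum it was -0.32 (limma adjusted p = 0.0339), and with limma-voom on recovered reads without the minimum -0.77 (adjusted p = 0.00668). Over the fits that leave out a library it was -0.38 to -0.24. Fewer libraries enter each of those fits; the cause of the other moves was not tested.

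Same-numbered M2 and M0 libraries deviated together with correlations of -0.03, 0.21 and 0.03, so the replicate numbers were not taken as pairs. With the replicate number as a block 25 members passed, 8 as higher and 17 as lower, with 3 writers and 5 erasers higher and 6 writers and 11 erasers lower. Depth limits Kdm5d, Kdm4d, Tet1, Hdac11 and Hdac9 most, with at most 108 reads per group, and among the called members Kdm8 and Sirt4, with at most 332.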
